A study of Schizosaccharomyces pombe with 24 samples.

Results

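The first hour without nitrogen in wild-type fission yeast (Schizosaccharomyces pombe) was followed by comparing 2 wt libraries taken 1 h after the move to nitrogen-free medium with 2 wt libraries taken at 0 h, 4 of the 24 libraries of the series. The series measured RNA by directional, ribosomal RNA-depleted sequencing in a wild type and in a strain labelled clr4D, at 0, 1, 2, 4, 10 and 24 h, with 2 replicates at each point that its design text calls biological. Both wt groups are strain 975 of mating type h+. The cultures grew at 32 °C in EMM, a defined minimal medium, with 225 µg/ml of adenine, histidine, leucine, lysine and uracil, and were washed in EMM without nitrogen and resuspended in it. Whether the nitrogen-free medium kept the 5 supplements is not stated. No culture was moved to fresh medium with nitrogen, so nitrogen loss, washing and time cannot be told apart. The strain labelled clr4D has the same background with clr4, the gene of the histone H3 lysine 9 methyltransferase, given as replaced by NatMX6. Its libraries held reads on clr4, with 277 and 397 CPM at 0 h and 343 and 427 CPM at 1 h against 89.3 and 171 and 93.4 and 123 in wt, and they are used below only as the libraries labelled clr4D.

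Fission yeast senses nitrogen mainly through the TOR kinases. When nitrogen is plentiful, TORC1 keeps ribosome production and growth high. When it is lost, cells draw on poorer nitrogen sources, degrade their own proteins in the vacuole by autophagy, divide at a small size and, with no partner to mate with, enter a long-lived quiescent state in G1. The comparison gives the RNA levels at the start of that course.

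Gene reads numbered 1418856 and 969870 at 0 h and 2855385 and 683724 at 1 h. Levels are given as CPM, counts set against all gene reads of the library, after scaling by the trimmed mean of M values, always with replicate 1 first, and differences as log2 (1 h minus 0 h) ± standard error (SE) from a quasi-likelihood fit in edgeR. A gene is called where its Benjamini-Hochberg adjusted p lies under 0.05. In the 4 libraries a count of 0 allows up to 3 reads, or 1.54 CPM over the 0 h group and 0.945 CPM over the 1 h group, a limit for counting error only. Across genes, the Pearson r of the 2 replicates on log2(CPM + 1) was 0.977 at 0 h and 0.979 at 1 h. The P-cell markers expected of an h+ strain were present but low and were not called (3 of 5 were found under their names and summed to 119 and 134 CPM at 0 h and 109 and 158 CPM at 1 h). Markers of M cells summed to 104 to 136 CPM in the 4 libraries. Nearly all of that sum came from 1 marker (88.7 to 124 CPM), and each other marker had at most 8.39 CPM in any library. The gene mat1-Mc was at 0. Reads aligned to more than 1 place were not counted, so a gene with a second copy can read 0, and this value does not decide the cell type. Of 4 spore markers isp3 was called higher, at 8.12 and 4.80 CPM at 0 h and 25.5 and 39.9 CPM at 1 h, and not without wt 0 h replicate 2 (1.84, adjusted p = 0.0691).

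Of 5664 genes tested, 3027 were called, which is 53.4%. The 1501 genes called higher make up 26.5% of those tested and the 1526 called lower 26.9%, and 873 and 825 of them changed at least 2-fold. Large rises were more frequent than large falls, with 99 genes at least 16-fold higher and 19 at least 16-fold lower. Among called genes 18 had 0 reads in both 0 h libraries and 2 had 0 reads in both 1 h libraries. Folds from so few reads are uncertain, and the part of such genes in the 16-fold counts was not tested. Levels are shares of RNA in whole cultures, so a change in all cells and a change in the share of cells at a stage cannot be told apart. In 4275 genes (75.5%) the libraries of the 2 groups did not overlap. Many genes named below were picked under that condition or after their values were seen. Where a lack of overlap is stated for them, it only describes their levels. The median log2 difference of all genes was 0.01. It was 0.15 when libraries were scaled by their totals alone, and the share of calls that were higher was then 58.8% against 49.6%.

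**Figure D1:**
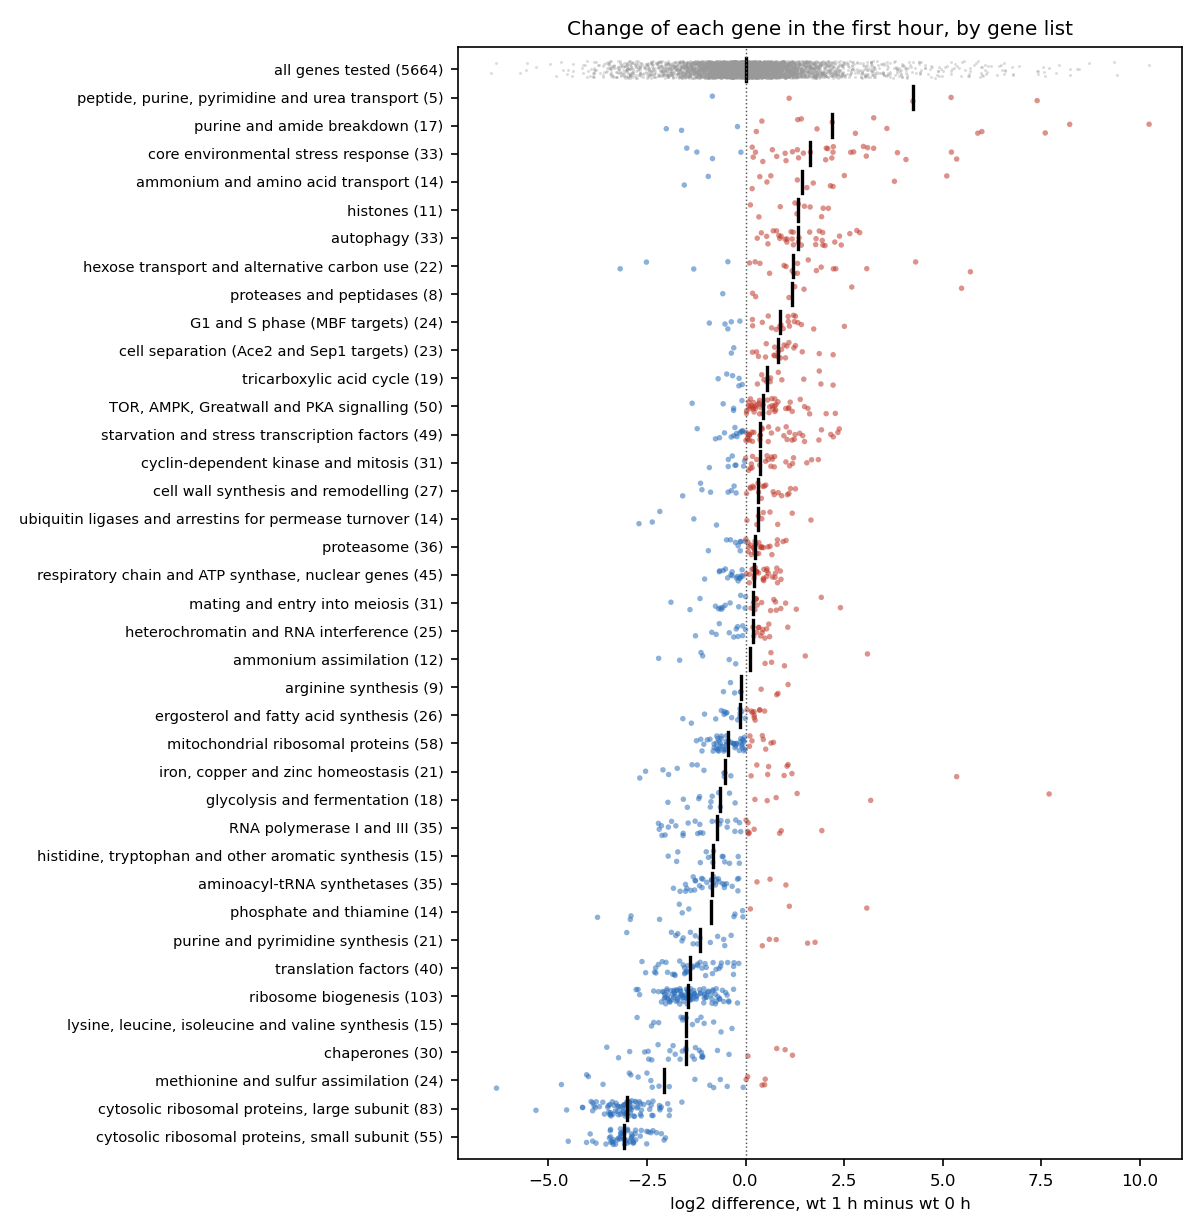
Log2 difference between 1 h and 0 h for every tested member of each gene list (points, red above 0 and blue below), with the list's median as a black bar and the number tested in brackets; all 5664 genes are in grey at the top. Both lists of cytosolic ribosomal proteins lie wholly below -1.6, autophagy and histone genes lie wholly above 0, and several lists of metabolism hold members on both sides.

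Genes that recover nitrogen from purines rose together and steeply. Purines are broken down by way of xanthine, uric acid and allantoin to urea, which urease splits to ammonia. Of 17 tested genes for breakdown of purines, amides and urea, 12 were called higher and 2 lower, with a median of 2.20 against 0.01 over all genes, and they went from 0.0832% and 0.0908% of gene reads to 1.9% and 1.77%. From guanine on, the gene named here for each step was called higher. Xanthine dioxygenase (xan1) had 27.97 and 32.4 CPM at 0 h and 9243 and 8663 CPM at 1 h. Uricase (uro1) had 73.99 and 88.7 CPM at 0 h and 5226 and 4371 CPM at 1 h, a log2 difference of 5.89 ± 0.32 (adjusted p = 1.94e-13). These libraries did not overlap in either gene. Allantoicase (dal2) went from 40.3 ± 14.5 to 2615 ± 67.6 CPM (SD, n = 2), ureidoglycolate hydrolase (dal1) from 8.10 ± 3.80 to 92.7 ± 4.85 CPM, and guanine deaminase (gud1), which makes xanthine from guanine, from 136 ± 17.3 to 1291 ± 272 CPM. Urease itself (ure2) changed least, by 1.32 ± 0.18, and its accessory gene ure7 by 1.41 ± 0.18, while adenine deaminase (dea2) was not called, at 0.41 (adjusted p = 0.195), except in the fit of the 4 wt libraries alone (0.43, adjusted p = 0.0378). The genes of the route other than xan1 were picked for their place in it after their values were seen, as were 62 of the 205 genes named here in all.

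A cluster with the SPAC869 prefix held some of the highest folds, though cat1, which has the same prefix, fell (-1.55 ± 0.22), as given below. The amidase gene SPAC869.01 had 0 reads in both 0 h libraries and 80.1 and 116 CPM at 1 h, at least 63.6-fold higher when 3 reads over the group stand for 0. The formamidase-like gene SPAC869.04 had 0.902 and 4.80 CPM at 0 h and 514 and 519.9 CPM at 1 h, and the urea transporter gene SPAC869.03c had 1.80 and 3.60 CPM at 0 h and 419.6 and 477 CPM at 1 h. All 3 were near or at the counting limit at 0 h and high in both 1 h libraries. Con-6 family gene SPAC869.09 (from 0 and 1 reads to 1191 and 205), HHE-domain gene hry1 (from 0 and 1 reads to 318 and 104) and the melibiase gene mel1 (5.70 ± 0.36) rose in the same region. The list's falls were both L-asparaginase genes, SPBPB8B6.05c (-2.01 ± 0.28) and SPAC977.12 (-1.62 ± 0.28), whereas a further L-asparaginase gene, SPBPB21E7.09, rose from 39.6 ± 4.999 to 269 ± 15.2 CPM. Asparaginase genes can share near-identical sequence, and reads aligned to more than 1 place were not counted, so the values of single copies are uncertain.

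The genes urg1, urg2 and urg3, named for their regulation by uracil, rose, whereas ura3 of pyrimidine synthesis fell, as given below with its pathway. The uracil-regulated gene urg1, annotated as a GTP cyclohydrolase II, had 113 and 169 CPM at 0 h and 14658 and 16214 CPM at 1 h. At 1 h it was the second most abundant of all genes by CPM, after the vacuolar protease gene isp6. The putative uracil phosphoribosyltransferase gene urg2 had 84.8 and 112 CPM at 0 h and 7234 and 9433 CPM at 1 h, and urg3 had 121 and 128 CPM at 0 h and 3987 and 4346 CPM at 1 h. The rises were 6.78 ± 0.44 for urg1 (adjusted p = 1.95e-11), 6.41 ± 0.44 for urg2 and 5.06 ± 0.23 for urg3, and no library of 1 h overlapped one of 0 h. The uracil permease gene fur4 had 106 and 110.3 CPM at 0 h and 2004 and 2078 CPM at 1 h. The uridine ribohydrolase gene urh1, which frees uracil from uridine, went from 28.8 ± 0.0706 to 2004 ± 31.96 CPM, and its neighbour thi7, a transporter gene, from 195 ± 22.2 to 2646 ± 74.5 CPM. SPAC1039.02, annotated as a phosphoprotein phosphatase, had 117 and 145 CPM at 0 h and 11829 and 13201 CPM at 1 h and stood between thi2 and nmt1 in the order of CPM at 1 h, an order that is not corrected for gene length.

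**Figure D2:**
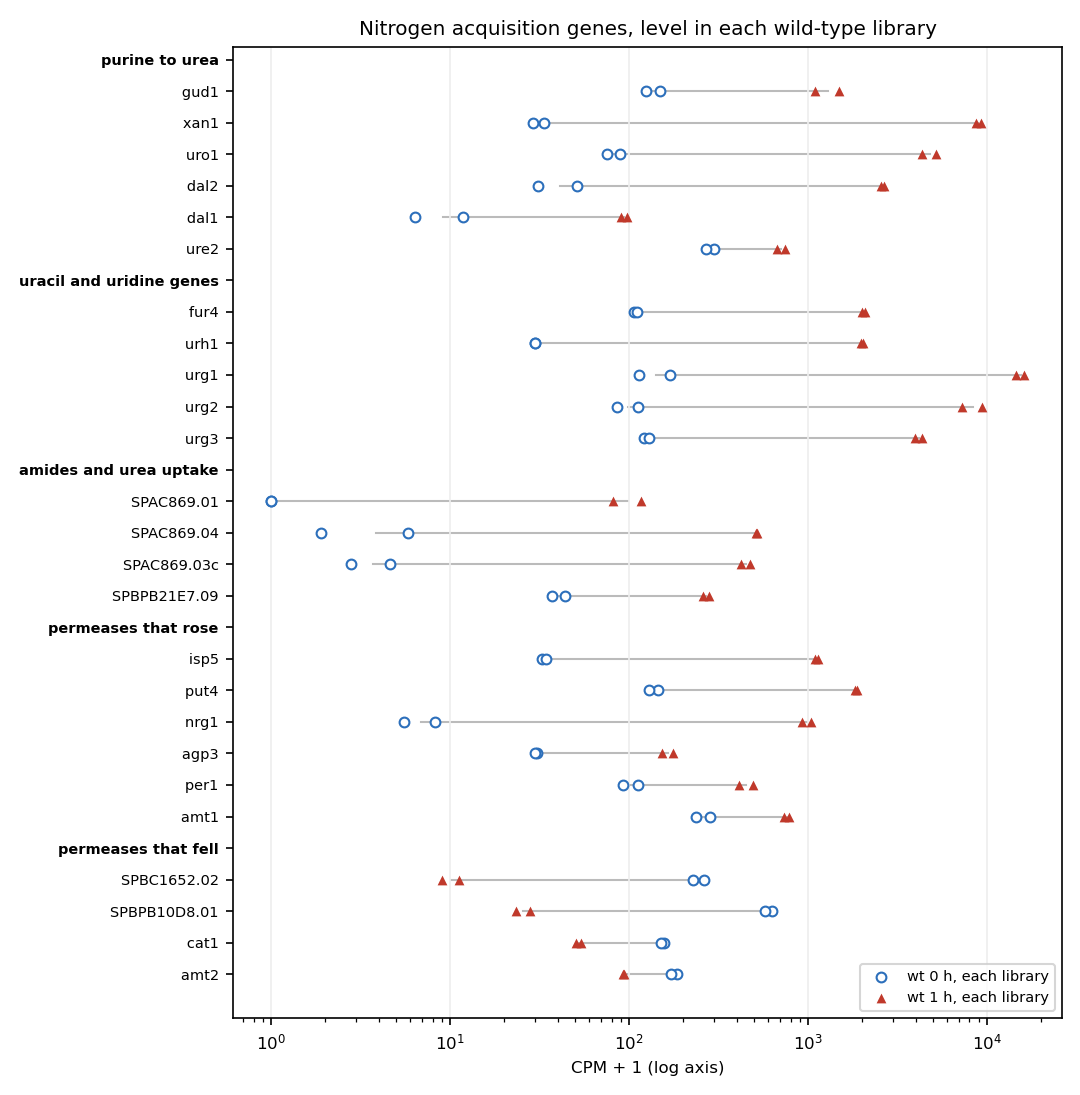
Level in each wild-type library (CPM + 1 on a log axis) of genes for nitrogen acquisition, with 0 h as open circles, 1 h as red triangles and a grey line between the group means. In all 25 genes the 2 libraries of 1 h lie on one side of both libraries of 0 h; 21 are higher and 4, all membrane transporters, are lower.

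Several of these genes stood far lower again at 2 h. In the 2 wt libraries of 2 h the mean level was 474 ± 9.59 CPM for urg1, 121 ± 2.78 for urg2, 136 ± 5.52 for urg3, 863 ± 9.17 for xan1 and 1162 ± 30.4 for SPAC1039.02, each under 1/4 of its 1 h mean. The IMP dehydrogenase gene gua1, of guanine nucleotide synthesis, rose from 1227 ± 92.2 to 3645 ± 914 CPM and stood at 408 ± 57.7 at 2 h, below its 0 h level. The tRNA adenosine deaminase gene tad2 went from 84.7 ± 2.76 to 400.2 ± 13.7 CPM and was back at 99.3 ± 2.84 at 2 h. By contrast isp6 (15297 ± 1318 CPM at 2 h), the amino acid transporter gene isp5 (1904 ± 63.9), put4 (1749 ± 95.8) and the catalase gene ctt1 (1471 ± 33.7) stood above 3/4 of the 1 h mean. The step from 1 h to 2 h was not tested here, and these genes were chosen after their 2 h levels were seen.

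**Figure D3:**
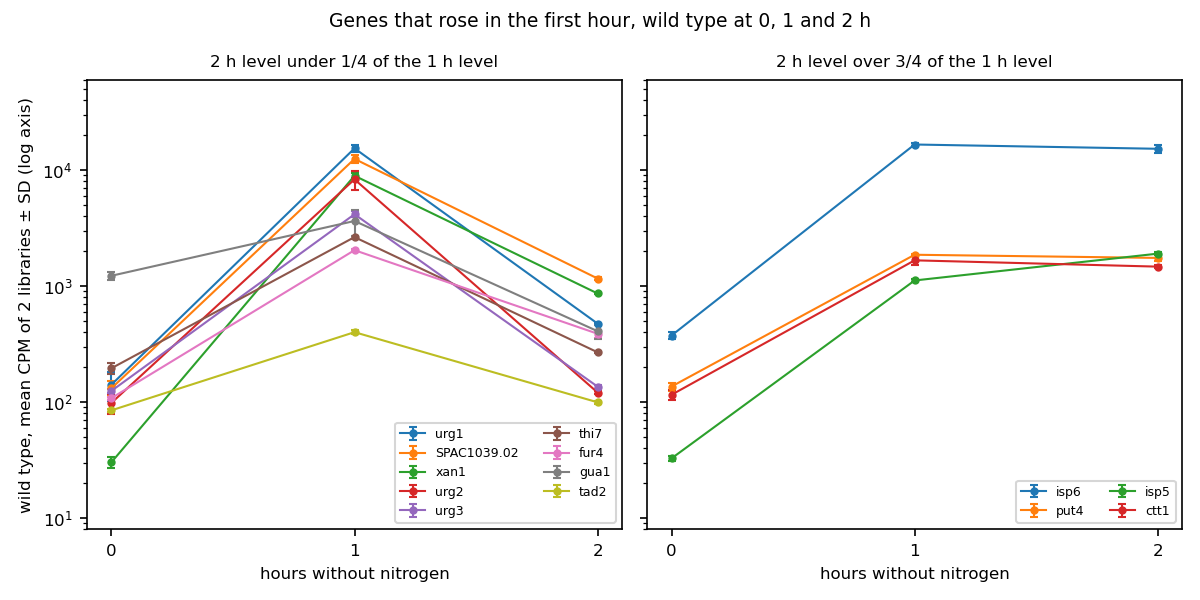
Mean level of 2 wild-type libraries (CPM, log axis) at 0, 1 and 2 h with the SD as bars, for genes whose 2 h mean lay under 1/4 of the 1 h mean (left) and for 4 genes whose 2 h mean lay above 3/4 of it (right). All 13 genes rose between 0 h and 1 h; gua1 is the one on the left whose 2 h level lies below its 0 h level.

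Uptake of amino acids and ammonium changed gene by gene. Of 14 genes for ammonium and amino acid transport, 10 were higher and 2 lower, with a median of 1.43. The amino acid transporter gene isp5 had 31.6 and 33.6 CPM at 0 h and 1145 and 1091 CPM at 1 h (5.10 ± 0.23, adjusted p = 8.76e-15). The proline transporter gene put4 had 143 and 128 CPM at 0 h and 1883 and 1844 CPM at 1 h. The 0 h and 1 h libraries lay far apart in both, and the replicates of a group lay close together. The permease genes per1 (2.15 ± 0.19) and agp3 (2.50 ± 0.23) and the ammonium transporter gene amt1 (1.55 ± 0.29) rose less. The arginine and lysine permease gene cat1 fell instead, with 155 and 149.9 CPM at 0 h and 52.99 and 49.4 CPM at 1 h, and so did the ammonium transporter gene amt2 (-0.95 ± 0.13), so that the 2 ammonium transporter genes called moved in opposite directions. The vacuolar transporter gene avt3 rose by 0.64 ± 0.13, and atg22, which exports amino acids from the vacuole and is listed with autophagy, by 2.89 ± 0.20. Genes for uptake of peptides, pyrimidines, purines and urea include fur4 and SPAC869.03c above, and 4 of 5 were higher and 1 lower (median 4.24). In a list of ubiquitin ligases and arrestins, which remove permeases from the membrane, and related genes, 5 of 14 were called higher and 5 lower. These are 35.7% each way against 26.5% and 26.9% of all genes. The lowest value of the list (-2.70) is that of a ubiquitin gene, which is neither a ligase nor an arrestin. The count of higher genes was lower without wt 0 h replicate 1 (3), wt 0 h replicate 2 (2) or wt 1 h replicate 1 (3). Outside these lists, the permease gene nrg1 had 4.51 and 7.19 CPM at 0 h and 1046 and 929.7 CPM at 1 h, a rise of 7.42 ± 0.28, and the permease gene SPAC1039.01 went from 16.2 ± 2.51 to 1088 ± 74.4 CPM.

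Genes that turn amino acids into usable nitrogen rose and fell. Proline dehydrogenase (put1) had 488 and 428 CPM at 0 h and 1423 and 1191 CPM at 1 h, a rise of 1.51 ± 0.16 (adjusted p = 2.39e-08). The arginase gene car1 went from 41.3 ± 19.4 to 356 ± 92.8 CPM (3.09 ± 0.27), while the second arginase gene aru1 fell by 1.13 on the log2 scale, from 469 ± 21.3 to 214 ± 4.91 CPM and the ornithine transaminase gene car2 fell by 1.67. In the list of ammonium assimilation, which also holds the proline and arginine genes just named, 5 of 12 genes were higher and 4 lower. The count of higher genes was 2 without wt 0 h replicate 2 or without wt 1 h replicate 1. The NADP-specific glutamate dehydrogenase gene of that list was called higher, from 1181 ± 283 to 2336.5 ± 517 CPM (0.99 ± 0.25, adjusted p = 0.00182). The largest fall of that list was in the branched-chain aminotransferase gene eca39, which went from 1249 ± 325 to 269.9 ± 18.6 CPM (-2.20 ± 0.26). Asparagine synthetase (asn1), which uses glutamine, fell from 1228 ± 251 to 576 ± 52.9 CPM. Glutamine synthetase (gln1) had 883 and 787 CPM at 0 h and 1146 and 1467 CPM at 1 h, did not overlap between the groups and was not called (0.64 ± 0.31, adjusted p = 0.0901), though it was called higher in 4 other fits: of the 4 wt libraries alone (0.64, adjusted p = 0.00425), without both wt 4 h libraries (0.59, adjusted p = 0.00704), with library totals (0.79, adjusted p = 0.00313) and by limma-voom (0.68, adjusted p = 0.0402).

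Autophagy genes rose with 3 exceptions. Autophagy delivers cytoplasm to the vacuole, where proteases release amino acids. Of 33 autophagy genes 30 were called higher and 0 lower by edgeR, with a median of 1.34 and a range from 0.30 to 2.89. The sorting nexin gene atg20 had 18.05 and 26.4 CPM at 0 h and 132 and 144 CPM at 1 h. The cargo receptor gene nbr1 had 42.4 and 61.1 CPM at 0 h and 354 and 368 CPM at 1 h, a rise of 2.82 ± 0.16 (adjusted p = 3.72e-13). The libraries did not overlap in either gene. The mitophagy receptor gene atg43 (2.26 ± 0.15), atg4, whose product processes Atg8 (2.38 ± 0.26), and atg13, a regulator of the Atg1 kinase (1.96 ± 0.16), also rose, and the members not called were atg38, atg12 and atg1803, all with positive differences. Of 8 genes for proteases and peptidases 5 were higher, among them the serine protease gene psp3 (221 and 176 CPM at 0 h and 1257 and 1322 CPM at 1 h) and vacuolar carboxypeptidase Y (cpy1, 2148 ± 91.03 to 6002 ± 162 CPM), and together the list grew from 0.331% and 0.331% of gene reads to 2.35% and 2.34%, most of it isp6. Outside these lists the serine protease gene htr11 went from 62.00 ± 7.28 to 985 ± 26.03 CPM. Of 36 proteasome genes 12 were higher and 1 lower (33.3% and 2.78% against 26.5% and 26.9% of all genes, median 0.23). The lower count was 3 without wt 0 h replicate 2 and 2 in 4 other fits, among them that without wt 1 h replicate 1. The core subunit gene pre1 rose most (1.03 ± 0.20).

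The apparatus of protein synthesis fell as a body. All 83 genes for proteins of the large cytosolic subunit and all 55 for the small one were called lower, each by at least 2-fold, against 14.6% of all genes, and the medians were -3.01 and -3.08. Their joint share of gene reads fell from 7.92% and 7.04% to 1.17% and 0.952% for the large subunit and from 6.04% and 5.38% to 0.847% and 0.689% for the small. The depth of the fall differed between copies of a gene. Of the P2 stalk protein genes, rpp203 had 469 and 326 CPM at 0 h and 10.99 and 6.38 CPM at 1 h and rpp202 707 and 674 CPM at 0 h and 195 and 149.9 CPM at 1 h, a 45.8-fold against a 4.01-fold fall. Of the L10 genes, rpl1002 fell by 4.14 and rpl1001 fell by 1.94 on the log2 scale. Reads that align to more than 1 place were not counted for any gene, and their share of each library went from 10.4% and 9.26% at 0 h to 5.43% and 5.45% at 1 h, so levels of near-identical copies may be too low, and the part of these uncounted reads in the differences was not tested.

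**Figure D4:**
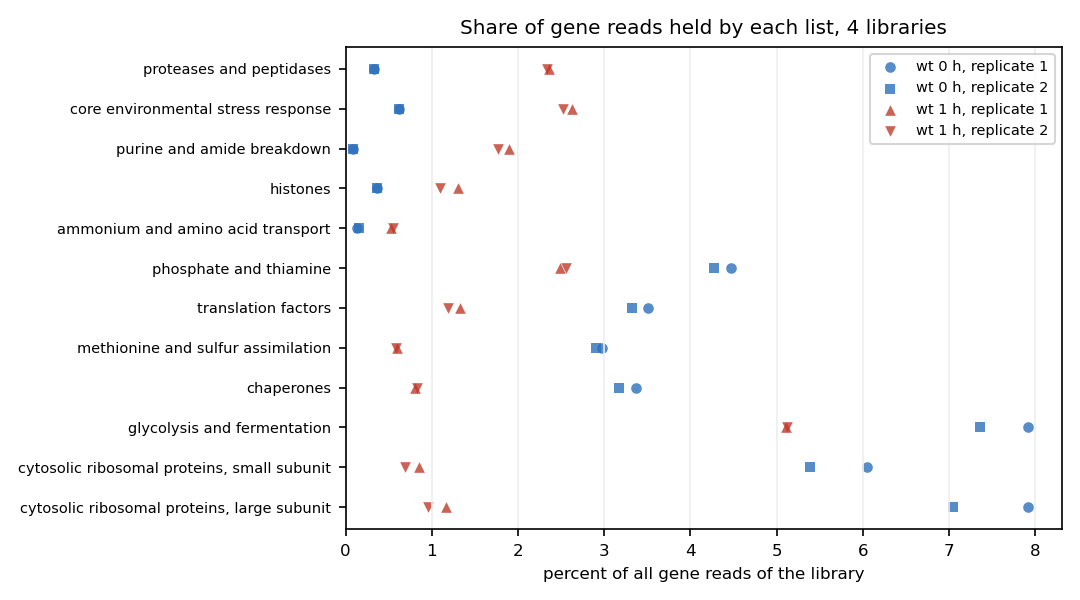
Percent of all gene reads held by 12 gene lists in each of the 4 libraries (blue for 0 h, red for 1 h, a marker shape for each replicate). In every list shown both 1 h libraries lie on the same side of both 0 h libraries, with ribosomal proteins, chaperones and sulfur assimilation lower and proteases, stress genes, purine breakdown and histones higher.

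Upstream of the ribosomal proteins, 97 of 103 ribosome biogenesis genes were lower and 0 higher (median -1.45). The nucleolin gene gar2 had 764 and 723 CPM at 0 h and 109.5 and 116 CPM at 1 h. The pseudouridylation factor gene gar1 had 337 and 379 CPM at 0 h and 50.6 and 55.8 CPM at 1 h, a log2 difference of -2.78 ± 0.21 (adjusted p = 2.15e-10). The 6 genes of this list that were not called had negative differences too. For RNA polymerases I and III, which make ribosomal and transfer RNA, 22 of 35 genes were lower and 3 higher. The largest subunit of polymerase I (nuc1) fell from 1129 ± 21.4 to 248 ± 14.2 CPM. The highest rise was in maf1, the repressor of polymerase III, which had 18.9 and 21.6 CPM at 0 h and 74.2 and 82.9 CPM at 1 h (1.93 ± 0.21, adjusted p = 4.36e-08), followed by the TFIIIC and TFIIIB subunit genes sfc3 (0.90 ± 0.15) and brf1 (0.86 ± 0.22). Of 40 translation factor genes 35 were lower and 0 higher by edgeR (median -1.41); tef3, the elongation factor eEF3, went from 9867 ± 1040.3 to 2734 ± 373 CPM and the initiation factor gene tif1 from 3253 ± 240.4 to 559 ± 66.8 CPM. Of 35 aminoacyl-tRNA synthetase genes 28 were lower and 2 higher, the latter being msm1 and SPCC576.06c, for methionine and tyrosine. Without wt 0 h replicate 1 the gene msm1 was not called (0.37, adjusted p = 0.194), nor without wt 1 h replicate 1 (0.60, adjusted p = 0.0622). Of 58 genes for mitochondrial ribosomal proteins 23 were lower and 1 higher (median -0.45); 3 were higher with library totals, with the replicate block or in the fit of the 4 wt libraries alone. The count of lower genes was 7 with scaling by library totals alone, 12 in DESeq2 and 10 to 15 in 3 of the 4 fits without 1 wt library (15 without wt 0 h replicate 1 or 2 and 10 without wt 1 h replicate 1).

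Chaperone genes fell with the ribosome, apart from a few. Chaperones help new and damaged proteins to fold. Of 30 genes 26 were lower and 3 higher, with a median of -1.51. The Hsp70 gene ssa2, one of the 10 most abundant at 0 h, had 9031 and 7338 CPM at 0 h and 628 and 805 CPM at 1 h. Hsp90 (hsp90) had 7481 and 5939 CPM at 0 h and 681 and 759 CPM at 1 h, a 9.32-fold fall. The Hsp40 gene mas5 (-2.94 ± 0.31), the ribosome-associated genes sks2 and zuo1 (-2.38 ± 0.30 and -2.56 ± 0.18), the mitochondrial genes ssc1 and hsp10 (-2.46 ± 0.26 and -2.47 ± 0.16) and the cytosolic chaperonin genes cct1, cct2, cct4, cct6 and cct7 (-1.30 to -1.09) also fell. The heat-shock factor gene hsf1, whose product activates many of them, was higher (1.45 ± 0.19). The members that rose were hsp104, which dissolves protein aggregates (357 and 303 CPM at 0 h and 768 and 740.0 CPM at 1 h), psi1 (0.79 ± 0.18) and hsp16 (44.2 and 79.1 CPM at 0 h and 130.3 and 104 CPM at 1 h). The gene hsp16 was not called when wt 0 h replicate 1 was left out (0.56, adjusted p = 0.254) or wt 1 h replicate 1 (0.73, adjusted p = 0.228).

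Genes of the core environmental stress response, a set induced by many stresses, went the other way. The rising chaperone genes hsp104, psi1 and hsp16 belong to this list too and are counted in both. Of 33 tested 25 were higher and 3 lower (median 1.64), and their share of gene reads grew from 0.625% and 0.624% to 2.62% and 2.52%. The metallothionein gene zym1 had 19.9 and 15.6 CPM at 0 h and 806 and 660.2 CPM at 1 h. The calcium pump gene cta3 had 17.1 and 37.2 CPM at 0 h and 1135 and 813 CPM at 1 h, and the catalase gene ctt1 123 and 108 CPM at 0 h and 1766 and 1569 CPM at 1 h. In these genes the 1 h libraries stood far above those of 0 h. The trehalose genes tps1, for synthesis, and ntp1, for breakdown, rose together, from 330.0 ± 25.9 to 1364 ± 63.8 CPM and from 177 ± 19.97 to 1517 ± 36.1 CPM. The falls were in ecl2 (-1.49 ± 0.25), the thioredoxin gene trx2 (-0.84 ± 0.23) and ecl3, whereas ecl1 of the same family, which extends chronological lifespan, rose by 2.66 ± 0.32. The call of ecl3 (-1.24 ± 0.51) was lost in 5 of the 14 other fits: with library totals alone, in DESeq2, and without wt 0 h replicate 1, wt 0 h replicate 2 or wt 1 h replicate 1 (-0.90 to -1.29).

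More signalling genes rose than fell. In the list of TOR, AMP-activated kinase, Greatwall and protein kinase A (PKA) signalling, 26 of 50 genes were higher and 2 lower (median 0.43); the lower count was 1 without wt 0 h replicate 1 or with library totals and 4 without wt 1 h replicate 2. The catalytic subunit gene of PKA (pka1) had 129 and 121 CPM at 0 h and 562 and 464 CPM at 1 h, the gene of its inhibitory regulatory subunit (cgs1) went from 168 ± 7.21 to 438 ± 48.3 CPM, the G protein beta subunit gene git5 from 27.5 ± 1.84 to 135 ± 12.1 CPM and git1 from 117 ± 0.775 to 352 ± 23.7 CPM. Genes that restrain TORC1 also rose, with tsc1 at 1.18 ± 0.15 and gtr2 at 1.49 ± 0.20. The 2 falls were bit61 (-1.35 ± 0.24) and sin1 (-0.57 ± 0.16), both for parts of TORC2. The call of sin1 was lost with scaling by library totals (-0.42, adjusted p = 0.0549) and without wt 0 h replicate 1 (-0.45, adjusted p = 0.0664). The gene for the TORC1 kinase tor2 rose by 0.59 ± 0.15.

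Of 49 transcription factor genes 20 were higher and 3 lower, or 1 lower without wt 0 h replicate 2, with library totals or in DESeq2. The stress factor gene atf1 had 106 and 97.1 CPM at 0 h and 505 and 440.1 CPM at 1 h. The zinc-finger genes rsv2 (2.38 ± 0.30) and klf1 (2.16 ± 0.17), the latter known for its part in long-term quiescence, and the forkhead gene sep1 (1.92 ± 0.18) rose too. The GATA factor genes gaf1 and fil1, which act on nitrogen and amino acid genes, were not called at -0.15 (adjusted p = 0.524) and 0.16 (adjusted p = 0.599).

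Synthesis of amino acids fell by pathway. For lysine, leucine, isoleucine and valine, 14 of 15 genes were lower and 0 higher by edgeR (median -1.51), and for histidine, tryptophan and other aromatic amino acids 13 of 15 and 0 (median -0.83). The homocitrate synthase gene lys4, at the entry to lysine synthesis, had 1237 and 1024 CPM at 0 h and 181 and 149.9 CPM at 1 h. The acetohydroxyacid reductoisomerase gene ilv5 had 3705 and 3146 CPM at 0 h and 681 and 628 CPM at 1 h. Both fell to under 1/4 of their 0 h means in each library. Arginine synthesis moved both ways. Of its 9 genes 4 were higher and 1 lower (median -0.12), with arg12 going from 676 ± 208 to 1426 ± 224 CPM and arg11 from 537 ± 84.97 to 949 ± 135 CPM, and the count of higher genes was 2 without wt 0 h replicate 2 or without wt 1 h replicate 1.

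The genes that take up sulfate and make methionine and cysteine showed some of the deepest falls. The fall of the homocysteine synthase gene was the deepest of all tested coding genes. It had 3240 and 2514 CPM at 0 h and 36.5 and 35.1 CPM at 1 h (-6.32 ± 0.30). Of 24 genes 18 were lower and 2 higher (median -2.07), and their share of gene reads went from 2.98% and 2.9% to 0.595% and 0.587%. The sulfate adenylyltransferase gene sua1 had 3138 and 2917 CPM at 0 h and 206 and 158 CPM at 1 h, and the cysteine transporter gene SPBPB10D8.01 629 and 572 CPM at 0 h and 22.4 and 27.1 CPM at 1 h. S-adenosylmethionine synthetase (sam1) had 6019 and 5371 CPM at 0 h and 434 and 499 CPM at 1 h, a 12.2-fold fall. The falls ran along the route, with sulfate uptake (sul1, -2.50 ± 0.17), adenylyl-sulfate kinase (met14, -2.72 ± 0.17), sulfite reductase (sir1, -2.91 ± 0.21) and methionine synthase (met26, 14596 ± 1448 to 2829.6 ± 195 CPM). The count of higher genes in the list was 0 without wt 0 h replicate 2 or wt 1 h replicate 1 and 1 without either of the other wt libraries.

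Nucleotide synthesis split. Of 21 genes 15 were lower and 5 higher (median -1.15). The shares are 71.4% lower and 23.8% higher, against 26.9% and 26.5% of all genes. The dihydroorotate dehydrogenase gene ura3, of pyrimidine synthesis, had 497 and 496 CPM at 0 h and 58.9 and 66.98 CPM at 1 h. The IMP cyclohydrolase gene ade10 went from 1373 ± 149 to 372 ± 14.1 CPM and ade9 from 362 ± 5.27 to 104 ± 9.76 CPM. The rises included gua1 and the phosphoribosyl pyrophosphate synthetase gene prs5 (166 ± 19.9 to 564 ± 50.8 CPM), the uridylate kinase gene ura6 (0.60 ± 0.16) and cdc22 (0.78 ± 0.18), the large subunit of ribonucleotide reductase, which also serves S phase.

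In central carbon metabolism several partner genes moved apart. Of 18 tested genes of glycolysis and fermentation 4 were higher and 9 lower (median -0.66). These are 22.2% and 50% against 26.5% and 26.9% of all genes. The main enolase gene eno101 had 8725 and 8173 CPM at 0 h and 2099 and 2217 CPM at 1 h. The second enolase gene eno102 had 1.80 and 1.20 CPM at 0 h and 345 and 325 CPM at 1 h, from 2 and 1 reads to 878 and 204. The copy with more reads fell 3.92-fold while the other rose 223-fold, and eno101 still had more reads of the pair at 1 h. Pyruvate decarboxylase showed the same arrangement, with pdc101 going from 17084 ± 1991 to 7613 ± 169 CPM and pdc201 from 199.7 ± 21.3 to 1805 ± 6.33 CPM, and so did glyceraldehyde-3-phosphate dehydrogenase, with tdh1 going from 7669 ± 347 to 4264 ± 262 CPM and gpd3 from 368 ± 47.9 to 909 ± 0.54 CPM. The gene tdh1 was not called when wt 0 h replicate 1 was left out (adjusted p = 0.0698), wt 1 h replicate 1 (0.0995) or wt 1 h replicate 2 (0.0526), with values from -0.95 to -0.84. The pyruvate kinase gene pyk1 fell (-1.19 ± 0.36), and its adjusted p was 0.0509 without wt 1 h replicate 1. The aldolase and phosphoglycerate kinase genes fba1 and pgk1 were not called in the fit of all 24 libraries (-0.68 ± 0.36 and -0.64 ± 0.34) and were called lower in the fit of the 4 wt libraries alone (-0.68 and -0.63) and without both wt 4 h libraries (-0.73 and -0.68); pgk1 was also called without wt 0 h replicate 2 (-1.01, adjusted p = 0.0371).

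**Figure D5:**
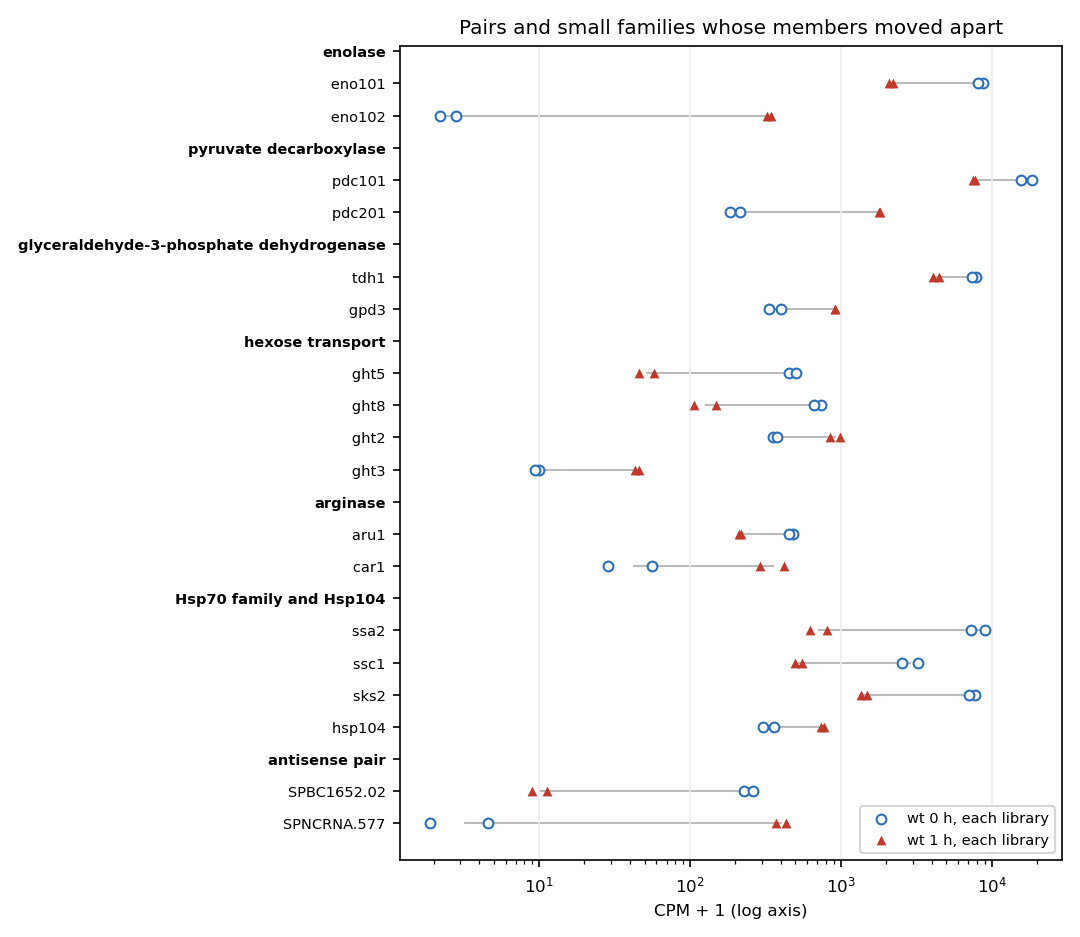
Level in each wild-type library (CPM + 1 on a log axis) for genes of like function whose members moved apart and for 1 antisense pair, with 0 h as open circles, 1 h as red triangles and a grey line between group means. In the enolase, pyruvate decarboxylase and glyceraldehyde-3-phosphate dehydrogenase pairs the copy with more reads at 0 h fell and the other rose.

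Of 22 tested genes for hexose transport and other carbon sources, 12 were higher and 3 lower (median 1.20). The high-affinity glucose transporter gene ght5 had 451 and 504 CPM at 0 h and 56.5 and 44.7 CPM at 1 h, and ght8 fell as well (-2.52 ± 0.31). The glucose and fructose transporter gene ght2 rose (353 and 379 CPM at 0 h and 847 and 981 CPM at 1 h), as did the gluconate transporter gene ght3 (2.29 ± 0.31). The groups overlapped in none of these 4 genes. In the tricarboxylic acid cycle 10 of 19 genes were higher and 2 lower (median 0.54), led by succinyl-CoA ligase (lsc2, 151 and 149 CPM at 0 h and 751 and 638 CPM at 1 h), isocitrate lyase of the glyoxylate bypass (icl1, 1.91 ± 0.16) and malate dehydrogenase (mdh1, 1.87 ± 0.19). The count of lower genes was 0 without wt 0 h replicate 1 and 1 without either 1 h library, in DESeq2 or with library totals. Most respiratory chain and ATP synthase genes were not called (33 of 45), with 9 higher and 3 lower; the higher count was 15 with library totals, and the lower count was 1 with library totals or without wt 0 h replicate 2 or wt 1 h replicate 1, 5 without wt 1 h replicate 2 and 7 without both wt 4 h libraries. The 9 higher and 3 lower respiratory genes are 20% and 6.67% of those tested, against 26.5% and 26.9% of all genes. The lactate dehydrogenase gene SPAPB1A11.03, outside these lists, had 2.71 and 7.19 CPM at 0 h and 947 and 826 CPM at 1 h. For ergosterol and fatty acid synthesis 8 of 26 genes were lower and 2 higher (30.8% and 7.69% against 26.9% and 26.5% of all genes). The lower count was 5 without wt 1 h replicate 1 or in DESeq2, and the higher count was 0 without wt 0 h replicate 1 or wt 1 h replicate 2 and 1 without wt 1 h replicate 1, without both wt 4 h libraries, in DESeq2 or with upper quartile factors. In this list the fatty acid synthase genes fas1 and fas2 were not called (-0.20 and 0.15).

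Several phosphate and thiamine genes fell. Of 14 genes 7 were lower and 2 higher. The phosphate transporter gene pho84 had 3452 and 2876 CPM at 0 h and 214 and 258 CPM at 1 h, and the acid phosphatase gene pho1 fell too (-2.92 ± 0.16). The thiamine pyrimidine gene nmt1, the gene with the highest CPM at 0 h, went from 25287 ± 2687 to 9321 ± 611 CPM, whereas the thiazole gene thi2 of the same vitamin had 16758 and 13822 CPM at 0 h and 15107 and 14051 CPM at 1 h and was not called (-0.07, adjusted p = 0.858). The 2 rises were tgp1, for glycerophosphodiester uptake (3.07 ± 0.44), and the alkaline phosphatase gene pho8 (1.11 ± 0.15). Among 21 tested genes of iron, copper and zinc homeostasis 10 were lower and 5 higher. The shares are 47.6% lower and 23.8% higher, against 26.9% and 26.5% of all genes. The zinc uptake gene zrt1 fell from 859 ± 108 to 203 ± 21.8 CPM while the metallothionein gene zym1 rose as given above. The siderophore transporter gene str1 (-2.54 ± 0.34) and the ferroxidase gene fio1 (-1.95 ± 0.18) fell, while sib1 and sib2, which make the siderophore ferrichrome, rose by 0.98 ± 0.17 and 1.18 ± 0.17.

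Most genes of G1 and S phase and most histone genes rose. Cells that lose nitrogen are known to divide before they arrest. Of 24 genes of G1 and S phase, which the factor MBF controls, 17 were higher and 4 lower (median 0.88); the lower count was 2 without wt 0 h replicate 2, without wt 1 h replicate 1 or in DESeq2 and 1 with library totals. The replication licensing gene cdc18 had 55.9 and 55.2 CPM at 0 h and 187 and 180.2 CPM at 1 h. The polymerase delta subunit gene cdm1 had 24.4 and 21.6 CPM at 0 h and 132 and 131 CPM at 1 h, a rise of 2.51 ± 0.26 (adjusted p = 1.89e-08). Both 1 h libraries lay above both 0 h libraries in these genes. Histone genes rose, with 9 of 11 higher and 0 lower by edgeR, and the 2 not called were the genes of the H2A.Z and CENP-A variants. The H2B gene htb1 had 967 and 996 CPM at 0 h and 4221 and 3236 CPM at 1 h, and the H4 gene hhf3 283 and 236 CPM at 0 h and 1271 and 952 CPM at 1 h. The copies of histones H3 and H4 are nearly identical in sequence, so the split of reads between copies is uncertain. Of 23 cell separation genes 14 were higher, and 9 without wt 0 h replicate 1 or without wt 1 h replicate 2; the chitin synthase regulator gene cfh4 (310.4 and 241 CPM at 0 h and 1296 and 1281 CPM at 1 h), the beta-glucosidase gene adg3 (1.87 ± 0.26) and the septation kinase gene sid2 (1.44 ± 0.16) led them. Of 31 genes of cyclin-dependent kinase and mitosis 15 were higher and 1 lower, and none was called lower once wt 1 h replicate 1 was left out. The lower count became 2 when either replicate 2 library was left out, without both wt 4 h libraries and with the replicate block. The list has the kinase inhibitor gene rum1 at 1.02 ± 0.18, the securin gene cut2 at 1.67 ± 0.29 and the mitotic cyclin gene cdc13 not called (0.28, adjusted p = 0.104), though it was called higher by limma-voom and with library totals (0.29 and 0.42). Of 27 cell wall genes 9 were higher and 3 lower (33.3% and 11.1% against 26.5% and 26.9% of all genes), with the alpha-glucanase gene agn1 up by 1.26 ± 0.29 and the glucanosyltransferase gene gas2 lower (-1.60 ± 0.31); the count of higher genes was 4 without wt 0 h replicate 1, 5 without wt 0 h replicate 2 and 4 without wt 1 h replicate 2.

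Among 31 genes for mating and entry into meiosis 5 were higher and 6 lower (median 0.20), shares of 16.1% and 19.4% that lie below the 26.5% and 26.9% of all genes. The gene ste11, for the factor that starts the mating programme, had 182 and 269 CPM at 0 h and 96.2 and 183 CPM at 1 h and was not called (-0.76 ± 0.37, adjusted p = 0.0912); it was called lower by limma-voom (-0.85) and without wt 1 h replicate 2 (-1.26). The meiotic regulator gene mei2 was called lower, with 207 and 347 CPM at 0 h and 83.2 and 132 CPM at 1 h (-1.41 ± 0.35), and not without wt 1 h replicate 1 (-1.11, adjusted p = 0.0514). In the kinase cascade of the pheromone response, byr2 rose (30.7 and 14.4 CPM at 0 h and 119 and 136 CPM at 1 h), while rgs1, which damps that response, fell (-1.16 ± 0.21). The count of lower genes in the list was 3 without wt 1 h replicate 1. Of 25 heterochromatin and RNA interference genes 7 were higher and 4 lower (28% and 16% against 26.5% and 26.9% of all genes). The HP1 gene swi6 was among the lower ones (-0.67 ± 0.16), and clr4 was not called (-0.30, adjusted p = 0.338). It was called lower without wt 0 h replicate 1 (-0.76, adjusted p = 0.0101) and was higher without wt 0 h replicate 2 (0.17, adjusted p = 0.62). The list's count of higher genes was 3 without wt 0 h replicate 2, 3 without wt 1 h replicate 1 and 2 without wt 1 h replicate 2. The histone methyltransferase gene set7, which is not of that list, fell from 29 and 15 reads to 3 and 1 (-4.07 ± 0.49).

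Long non-coding RNAs were called less often than genes in general. Of 675 tested 135 were called higher, which is 20% against 26.5% of all genes, and 61 lower, 9.04% against 26.9% (median 0.27). Of the 675, 125 were called at least 2-fold higher, a larger share than the 15.4% of all genes. Called falls of at least 2-fold numbered 50, a smaller share than the 14.6% of all genes. Long non-coding RNAs hold few reads, so a lower share of calls does not show a smaller response. They took 0.876% and 0.923% of gene reads at 0 h and 1.27% and 1.19% at 1 h. The RNA SPNCRNA.577 had 0.902 and 3.60 CPM at 0 h and 435 and 368 CPM at 1 h. In the reference annotation it lies across the amino acid transporter gene SPBC1652.02 on the opposite strand, and that gene fell from 226 and 263 CPM to 10.2 and 7.97 (-4.64 ± 0.24). One of the pair rose in both libraries as the other fell. The RNA SPNCRNA.935 had 1.80 and 7.19 CPM at 0 h and 535 and 482 CPM at 1 h, and SPNCRNA.602 went from 0 reads in both 0 h libraries to 31.4 and 35.1 CPM, at least 21.5-fold higher against 3 reads over the group. SPNCRNA.1364, which overlaps the rising protease gene htr11 on the other strand, rose by 5.65 ± 0.47. The RNA omt3, known from meiosis, fell from 84.8 and 88.7 CPM to 5.89 and 11.2 and was at 75.04 ± 25.9 at 2 h. The falling SPNCRNA.1465 (-3.15 ± 0.79) overlaps rps1601, which fell as well. The libraries are directional, but the strand setting of the counting is not given in the sources used here, so reads of a gene and its antisense partner cannot be told apart.

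The steepest rises lay next to each other in several places. In the gene order of the reference annotation, 11 runs of at least 3 neighbouring coding genes were all called higher by at least 4-fold and held 45 genes, and 2 such runs were lower and held 6. The order of genes was looked at after the values were seen, and no test was made. One run holds urg2, urg3 and urg1. One holds thi7, urh1 and the maltase gene mal1. A run of 5 begins at put4 and goes on through SPAC869.09, pcm2, mel1 and hry1. A run of 6 joins klf1, 3 genes between and isp5 to mmf2, which rose from 4.81 ± 3.41 to 473 ± 11.9 CPM. The longest, of 7 genes, contains the D-glutamate cyclase gene dgc1, which went from 22.5 ± 11.5 to 2209.9 ± 21.99 CPM. Another joins eno102 to SPBPB21E7.02c and SPBPB21E7.10, both with 0 reads at 0 h, where the lower bounds of the rise are 13.2-fold and 18.6-fold. One of the 2 falling runs holds rpl701, rps1402 and rps1601, all of the ribosome.

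The first hour in the wild type was then set against the first hour in the libraries labelled clr4D, which share no library with it. The difference of the 2 changes was tested for all 5664 genes, and edgeR called 0. Without adjustment, 224 genes (3.95%) had a p under 0.05. DESeq2 called 7 and limma-voom 0, and the count over all other fits ran from 0 to 7. The smallest adjusted p was that of urg3, whose rise was larger in wt by 1.50 ± 0.28 (adjusted p = 0.121); in the libraries labelled clr4D it had 202 and 207 CPM at 0 h and 2239.6 and 2581 at 1 h. The histone H3 gene hht1 followed, at 1.17 ± 0.24 (adjusted p = 0.168). Both were called in DESeq2 and in 3 further fits: with library totals alone, with upper quartile factors and without the wt 4 h libraries (adjusted p from 0.00135 to 0.0277). The other genes with the smallest values included SPBC1861.05, tad2, hhf1, thi7 and urg1, each with the larger rise in wt by 0.79 to 1.86. None of these 5 was called by edgeR, and DESeq2 called thi7 (adjusted p = 0.0391) and SPBC1861.05 (adjusted p = 0.0124). The other 3 genes called by DESeq2 with all libraries had the lower change in wt. They were tlh2 (-4.18, adjusted p = 0.00704), SPNCRNA.232 (-3.95, adjusted p = 0.0121) and mag2 (-9.08, adjusted p = 0.00485). A p that misses the threshold does not show that the first hours were alike. Without wt 0 h replicate 1, edgeR called 3 genes, tlh2, SPNCRNA.232 and mag2. In wt at 0 h the subtelomeric helicase gene tlh2 had 2 reads in replicate 1 and 28 in replicate 2, and SPNCRNA.232 had 2 and 28, so that the replicates of that group stood far apart. Their falls in the first hour of wt were not called without wt 0 h replicate 2 (-0.23 and 0.03) or without wt 1 h replicate 1 (-3.29 and -1.75), nor by limma-voom (adjusted p = 0.106 and 0.143). That of SPNCRNA.232 was also not called with library totals (adjusted p = 0.0527) or without both wt 4 h libraries (adjusted p = 0.0522).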

How the data were processed

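RNA of 24 fission yeast libraries was sequenced, of which 2 wt libraries at 1 h and 2 at 0 h are described, with 4 libraries labelled clr4D for comparison. Per the submitters' processing notes the reads were handled with TopHat2 2.0.8 and HTSeq 0.6.1 on build ASM294v2, and the authors deposited raw read counts per gene for each library. The sources used here do not give the annotation release or the strand setting of the counting. Lines that name no gene were removed; in the 4 libraries they held 2.17% to 3.07% (no feature), 0.945% to 1.33% (ambiguous) and 5.43% to 10.4% (not unique) of reads.

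Of 6877 genes, 5664 passed edgeR's filterByExpr and 1213 did not. All 24 libraries entered a quasi-likelihood fit (edgeR 4.0.16, R 4.3.3) on 12 group means with TMM factors and robust dispersion (common biological coefficient of variation 0.122, 12 residual degrees of freedom). P-values were two-sided and adjusted by Benjamini-Hochberg over all genes tested; the SE was taken as the size of the log2 difference over the root of the F statistic. Tested on simulated counts of the first-hour comparison over 5637 genes, the step recovered 89 of 100 genes changed 2-fold and 98 of 100 changed 4-fold, with 5 false calls. The changed genes were a small part of all, balanced up and down and well covered at 0 h, and counts were drawn with the fit's own dispersions. Recovery and false calls for genes of few reads at 0 h, or with as many changes as in the data, were not tested. DESeq2 1.42.0, limma-voom (limma 3.58.1), other scalings and filters, fewer libraries and a replicate block were alternatives.

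Gene lists (38) and members were chosen with earlier results of these data known. The text names genes by a rule: the 15 largest rises and falls of coding genes and 5 of long non-coding RNAs whose groups do not overlap and reach 10 CPM, the 3 largest rises and falls of each list, the 10 highest genes at each time, 5 genes each way with 0 reads in a group, the 10 smallest p of the strain comparison, and landmark genes. Not every gene so found is named, and the others were chosen after their values were seen. Names, products and gene order come from RefSeq's ASM294v3 annotation (6705 of 6877 genes matched); it was also used for which genes overlap and on which strand, and none of its coordinates or sequences is printed because the build differs. The planned search of promoters for motifs was not run.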

Additional observations from a re-analysis of the deposited data

Results flagged for a closer look

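Reads that lie outside annotated features, which no comparison above uses, took 3.05% ± 0.026 (SD, n = 2) of reads at 1 h against 2.22% ± 0.069 at 0 h, with both 1 h libraries above both 0 h libraries. No single gene's difference between the first hours of the strains passed the threshold in edgeR (224 genes had an unadjusted p under 0.05, and DESeq2 called 7), and groups of 2 libraries are too small for a test of outlying libraries.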

How the results depend on the processing

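The 3027 genes called in the first hour became 2673 (DESeq2) to 3148 (without both wt 4 h libraries) under the other settings with all compared libraries, and 2337 to 2795 without 1 wt library, with 1127 to 1304 higher and 1205 to 1491 lower. With library totals alone the median of all genes shifted by 0.142. The replicate numbers were not treated as pairs in the main fit. Deviations of same-numbered wt 0 h and wt 1 h libraries correlated at 0.136. Over 66 pairs of groups the correlation ran from -0.075 to 0.330, and 23 passed 0.1. Whether same-numbered libraries share a batch cannot be told from these values. The replicate block gave 3098 calls, 1530 higher and 1568 lower. For the difference of the first hours between strains, 0 calls became 2 with library totals, 2 with upper quartile factors, 7 in DESeq2, 2 without both wt 4 h libraries and 0 with the replicate block, and 0 to 3 without 1 library; the cause was not tested. Of the genes named in the text 189 were called, and 179 of them kept the call in all 14 other settings. Signs turned, with no call on the turned side, for thi2 with library totals (0.078) and, leaving out 1 wt library, for thi2 (range -0.25 to 0.033), clr4 (-0.76 to 0.17), mag2 (-4.78 to 3.72) and SPNCRNA.232 (-4.12 to 0.033). The shallowest of the 4 libraries, wt 1 h replicate 2, held 683724 gene reads, so for genes of a few reads the depth sets the precision.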

Other observations

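The runs of rising neighbours also held genes that belong to none of the lists described. SPAC11D3.18c, a carboxylic acid transporter gene in the run of dgc1, had 46.9 and 27.6 CPM at 0 h and 1184 and 920.2 CPM at 1 h (4.79 ± 0.32). SPAC11D3.15, for an ATP-hydrolysing oxoprolinase that frees glutamate, had 194 and 224 CPM at 0 h and 1284 and 1109.9 CPM at 1 h. SPAC1039.07c, annotated as an alanine-glyoxylate transaminase, had 51.4 and 47.96 CPM at 0 h and 590.3 and 474 CPM at 1 h, and its neighbour SPAC1039.08, a serine acetyltransferase, rose by 4.30 ± 0.26. In these 4 genes both 1 h libraries lay above both 0 h libraries. At 2 h the mean was 663 ± 86.7 CPM for SPAC1039.07c and 428 ± 102 CPM for SPAC11D3.18c. The uncharacterized gene SPAPJ695.02, in a run that ends at the gluconate transporter gene ght3, had 1.80 and 2.40 CPM at 0 h and 202 and 277 CPM at 1 h. These genes were chosen after their values were seen.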
